A study of Anser cygnoides with 12 samples.

Results

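The genes described here encode the peptide hormones of the gut endocrine cells and the granule protein that marks these cells. Of the 10 genes chosen by name, GCG, CCK, GHRL, NTS, GIP, MLN and CHGA are among the 18007 genes of the deposited table, and SST, PYY and TPH1 are not gene names of it. A row named LOC106044792 is described in the table as somatostatin-like, and its gene number is that of SST in a RefSeq gene table of a Taihu goose assembly. By the same number, LOC106047032 is SCT, the secretin gene. LOC106042627 is described as tryptophan 5-hydroxylase-like. These 3 rows were added after the table was seen and are given beside the 7 genes found by name.

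Jejunum was taken from female Sichuan white geese that were 250 days old at the start and were fed for 12 weeks. The Con group (4 geese sequenced) received a corn-soybean meal diet with 0% wheat germ, the LWG group (4 geese) a diet with 21.8% wheat germ and the HWG group (4 geese) a diet with 43.6% wheat germ. Energy, protein and fiber were held close to equal between diets, so corn stayed similar while soybean meal, rapeseed meal, bran and soybean oil went down as wheat germ went up. Each library is 1 goose, and the deposited counts of a library summed to between 40159187 and 45686956. A level is given in CPM (counts scaled to a common library size) within a gene and in FPKM (per length of transcript, deposited by the authors) between genes.

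Enteroendocrine cells are scattered single cells of the gut epithelium. They sense nutrients at their apical side and release peptides or serotonin at their base. In mammals the kinds of peptide change along the gut. GIP and CCK are typical of the upper small intestine, while neurotensin and the peptides cut from proglucagon become more frequent toward the ileum. For this reason these genes are also used to tell where along the intestine a piece of tissue was cut.

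Per length of transcript, CHGA was the most abundant of the 7 genes and MLN and GHRL were close to absent. CHGA, which encodes the granule protein chromogranin A, averaged 350 ± 73.3 FPKM (SD, n = 12 geese) and stood at rank 143 of all 18007 genes. GCG, the proglucagon gene, averaged 93.3 ± 31.7 FPKM, and NTS, the neurotensin gene, 80.4 ± 29.1 FPKM. Their ranges over the geese, 54.9 to 159.5 FPKM for GCG and 43.8 to 145 FPKM for NTS, overlapped. CCK, whose peptide empties the gallbladder and slows the stomach, averaged 30.7 ± 11.8 FPKM, and GIP, which encodes an incretin, 9.93 ± 10.2 FPKM with a range of 0.243 to 36.8 FPKM. MLN, the motilin gene, averaged 0.353 ± 0.364 FPKM and was at 0 in 3 geese. GHRL, the ghrelin gene, was at 0 counts in 11 libraries and at 2 counts in Con replicate 4, and MBOAT4, the enzyme that acylates ghrelin, did not exceed 0.0935 FPKM. Since a deposited count is not a single read pair, no upper limit is derived from these zeros. In chickens ghrelin is made mainly in the glandular stomach.

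**Figure D1:**
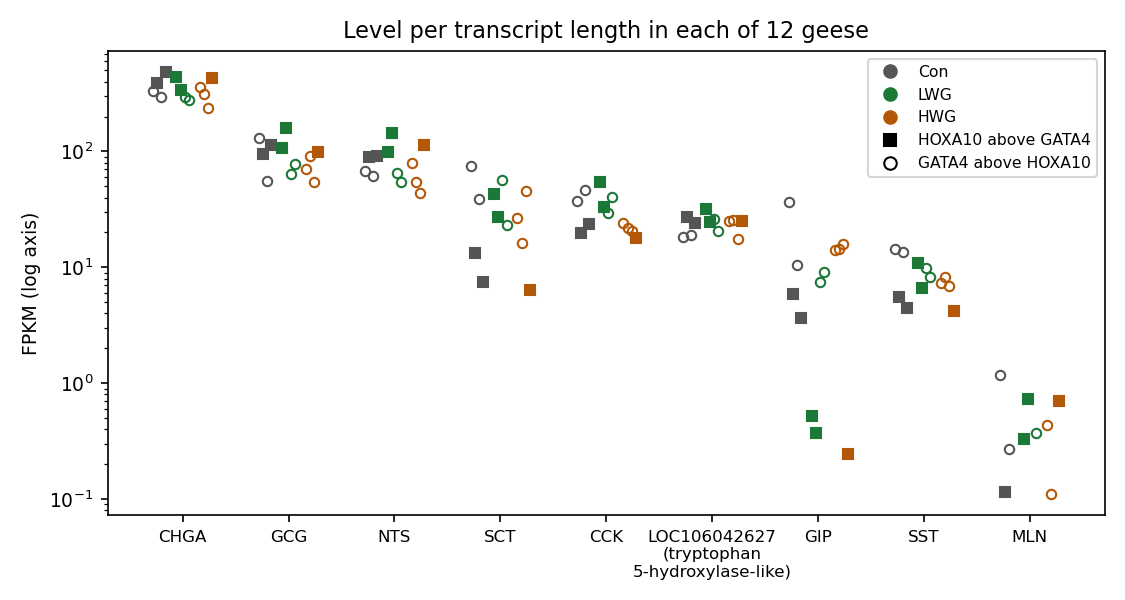
FPKM (log axis) of each goose for CHGA, GCG, NTS, CCK, GIP and MLN and for SCT, SST and the tryptophan 5-hydroxylase-like gene, with Con, LWG and HWG geese in separate colors and filled squares for geese with HOXA10 above GATA4. CHGA lies between 238 and 486 FPKM, GIP spreads from 0.243 to 36.8 FPKM, and zeros of MLN are not drawn on the log axis.

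The endocrine label was checked against genes of these cells. Of 10 markers, 9 were in the table and all 9 were tested. CHGA is one of the 9, and the others include SCG2 at 24.8 FPKM, SCG5 at 12.3 FPKM, SCG3 at 8.80 FPKM, CHGB at 2.66 FPKM and the prohormone convertase PCSK1 at 2.31 FPKM, as means over the 12 geese. The transcription factors FEV, RFX6 and NEUROD1 stood at 4.34, 1.36 and 0.268 FPKM. Markers of enteric neurons were present in the same tissue, among them STMN2 at 27.6 FPKM, VIP at 20.0 FPKM and TAC1 at 17.05 FPKM. The part of neurons in the levels of the 9 markers was not tested. Since GCG and SST are also made in pancreatic islets, markers of the pancreas were checked. Of 15 listed, 3 matched a gene of the table, namely the islet gene IAPP and the exocrine genes CPB1 and CTRL. Their summed level did not exceed 1.05 CPM in any library, and none passed the filter on low counts. In whole tissue, fewer endocrine cells and less RNA per cell cannot be told apart.

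The labelled tissue was checked in the same way. GATA4, a transcription factor of the upper small intestine in mice, and HOXA10, a homeobox gene of posterior gut, separated the 12 jejunum samples into sets of 7 and 5. In 7 geese (Con replicates 1 and 3, LWG replicates 3 and 4, HWG replicates 1, 2 and 3) GATA4 was at 27.5 to 86.7 CPM and HOXA10 at 0 to 0.166 CPM. In the other 5 geese (Con replicates 2 and 4, LWG replicates 1 and 2, HWG replicate 4) HOXA10 was at 5.75 to 35.6 CPM and GATA4 at 0 to 2.66 CPM. The log2 ratio of HOXA10 to GATA4 ran from -10.9 to -7.43 in the 7 geese and from 1.90 to 9.38 in the 5 geese, with no goose in the gap of 9.33. ONECUT2, a further gene of the upper intestine, was at 0.497 to 2.83 CPM in the 7 geese and at 0 to 0.148 CPM in the 5. Of the 12 genes listed as distal, HOXA10 was used to make the sets. Besides it, HOXA9 alone was higher in each of the 5 geese than in each of the 7. The others overlapped, FABP6 and SLC10A2 of ileal bile acid uptake included. FABP6 averaged 13270 ± 7144 CPM in LWG and 4178 ± 672 CPM in Con without overlap (SD, n = 4 each, adjusted p = 0.652 from edgeR). Each diet group holds geese of both sets, so the pieces differ in these markers within each diet.

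GIP, the incretin that the upper intestine releases on glucose and fat, was low wherever HOXA10 was above GATA4. It was at 107, 15.5, 34.2 and 9.56 CPM in Con replicates 1 to 4, at 1.44, 1.11, 24.9 and 30.05 CPM in LWG replicates 1 to 4 and at 39.9, 38.4, 48.3 and 0.655 CPM in HWG replicates 1 to 4. The 5 geese with HOXA10 above GATA4 had 0.655 to 15.5 CPM, below each of the 7 other geese, which had 24.9 to 107 CPM. The medians, 1.44 and 38.4 CPM, differ 26.6-fold. Between the highest and the lowest goose the difference was 163-fold, and the SD of log2 CPM within diet groups, 2.41, was larger than that of 99.7% of the 14863 tested genes.

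NTS, whose peptide is released on fat and slows gastric emptying in mammals, had the opposite order with a smaller range. It was at 137, 166, 141 and 168 CPM in Con replicates 1 to 4, at 187, 299, 151 and 124 CPM in LWG replicates 1 to 4 and at 155, 101, 92.2 and 206 CPM in HWG replicates 1 to 4. The 5 geese with HOXA10 above GATA4 had 166 to 299 CPM and the 7 others 92.2 to 155 CPM. CHGA also did not overlap in CPM between these geese, though by a narrow margin. Its lowest value was 591 CPM in the 5 and its highest 589 CPM in the 7. In FPKM the sets overlapped for CHGA, at 341 FPKM in LWG replicate 2 of the 5 and 358 FPKM in HWG replicate 1 of the 7. GCG overlapped, at 118 to 222 CPM in the 5 geese and at 78.2 to 180.4 CPM in the 7, as did CCK and MLN. Thus 3 of the 6 tested hormone genes were without overlap in CPM between the 5 and the 7 geese. The share of all tested genes was 1.2% (0.558% higher and 0.639% lower in the 5 geese). The count of 3 includes CHGA and so depends on the scaling. No test is given, since the sets were made from the same libraries. Other markers differed between the sets as well. The summed enterocyte markers had a median of 5327 CPM in the 5 geese and 20350 CPM in the 7, and the summed leukocyte markers a median of 4749 CPM in the 5 geese and 8156 CPM in the 7, with overlap in both, and their part in the hormone levels was not tested.

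**Figure D2:**
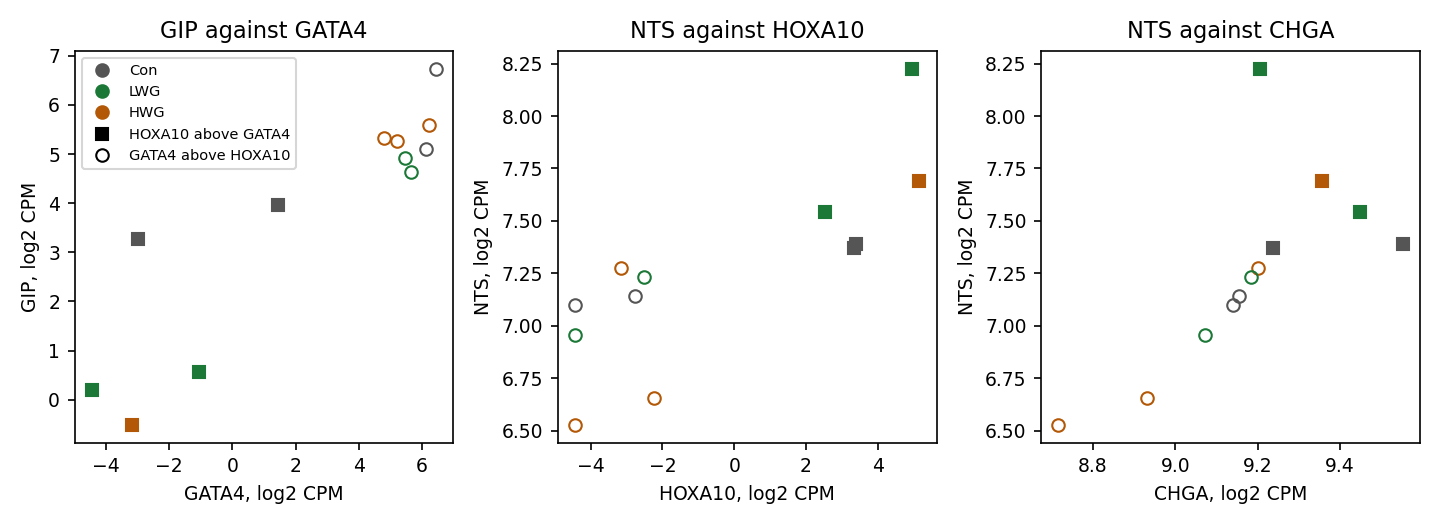
GIP against GATA4, NTS against HOXA10 and NTS against CHGA, each in log2 CPM with a prior count of 2 and 1 point for each of the 12 geese (filled squares, HOXA10 above GATA4). GIP is lowest in the 5 geese with little GATA4, NTS is highest in the 5 geese with HOXA10, and NTS rises with CHGA, with LWG replicate 2 above the others.

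Genes outside the name rule were read in the same way. SCT was at 7.01 to 49.5 CPM in the 5 geese with HOXA10 above GATA4 and at 18.3 to 92.6 CPM in the 7 others. SST, which restrains the release of other hormones, was at 2.05 to 5.615 CPM and at 3.81 to 8.23 CPM in the same sets. Both overlapped. The tryptophan 5-hydroxylase-like gene, of the enzyme family that starts serotonin synthesis, was among the steadiest genes measured, at 95.3 to 158 CPM over all 12 geese, and 9.84% of the tested genes had a smaller SD within groups.

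Within the 7 geese with GATA4 above HOXA10, no relation of a hormone gene with the ratio of HOXA10 to GATA4 passed the test. HOXA10 was at 0 to 8 counts in these geese, close to the floor. The test could therefore neither show nor exclude a relation with position. For GIP, Pearson's r with the log2 ratio of HOXA10 to GATA4 was -0.61 (exact permutation test, p = 0.123, adjusted p = 0.565 over 6 genes) and Spearman's rho was -0.43 (exact p = 0.354, adjusted p = 0.597). Without Con replicate 1, Pearson's r was -0.28. The other 5 genes had r between -0.31 and 0.325, with adjusted p = 0.565 at the lowest. With all 12 geese no coefficient is given, because they form separate sets on this ratio, and the 5 geese are too few for one.

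The hormone genes did not all vary together between geese. NTS and GIP ran in opposite directions, with the largest Pearson's r in size of the 15 pairs compared. Over the 12 geese, Pearson's r of their log2 CPM was -0.80 (permutation test, p = 0.00102, adjusted p = 0.0153 over 15 pairs) and Spearman's rho was -0.85 (p = 0.00091, adjusted p = 0.00683). It was -0.77 without the 2 geese at the ends of the NTS range and -0.83 on deviations from the diet group means. Both genes separate the 5 geese with HOXA10 above GATA4 from the 7 others, and within those 7 geese r was -0.12 (exact permutation test, p = 0.822), so no such relation was measured within the set. GIP and CHGA had r = -0.58 (permutation test, p = 0.0489, adjusted p = 0.1835) and rho = -0.78 (p = 0.00428, adjusted p = 0.0214), and r = -0.12 within the 7 geese (exact permutation test, p = 0.761). Without the 2 geese farthest from the GIP median, HWG replicate 4 and LWG replicate 2, r was -0.67. Both were at the low end of GIP.

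NTS and CHGA had the highest positive r and, of all pairs, the largest rho in size. Over the 12 geese, r was 0.69 (permutation test, p = 0.0147, adjusted p = 0.107) and rho was 0.90 (p = 9e-05, adjusted p = 0.00135). Pearson's r was 0.85 without the 2 geese at the ends of the NTS range, 0.68 on deviations from the diet group means and 0.97 within the 7 geese with GATA4 above HOXA10 (exact permutation test, p = 0.000198). It was 0.55 without HWG replicate 3, where the permutation test gave p = 0.0796. GCG and NTS had r = 0.65 (permutation test, p = 0.0215, adjusted p = 0.107) and rho = 0.53 (p = 0.0801, adjusted p = 0.3005). This relation rests on the geese at the ends of the GCG range, since r was 0.11 without the 2 of them, and 0.39 without LWG replicate 2. None of the other 11 pairs had an unadjusted p under 0.05 for either coefficient.

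Among all tested genes with a symbol, those most like a hormone gene were named by the highest Pearson's r of log2 CPM over the 12 geese. For GCG they were SCG3 (r = 0.92), a granule protein of the same cells, SRSF5 (0.92) and DOCK3 (0.89). For GIP they were GIMD1 (0.95), PBLD (0.91) and BST1 (0.91), and for NTS they were PRKG2 (0.92), GALNT3 (0.85) and ABCB5 (0.84). CCK was closest to GK5 (0.91), TBC1D12 (0.90) and BAG4 (0.88), and CHGA to TTC21B (0.86), PTPRQ (0.86) and MTR (0.86). MLN, at no more than 27 counts, was closest to SNX16 (0.89), MATN3 (0.84) and STEEP1 (0.82). These coefficients are the highest of all those searched and are given with no test.

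For the effect of diet, the 6 hormone genes that passed the filter on low counts (all but GHRL) were read from an edgeR quasi-likelihood fit of all 14863 tested genes, with Benjamini-Hochberg adjustment over all of them. None of the 6 had an adjusted p under 0.05 in any comparison, against 0.0% of the tested genes in each of LWG versus Con, HWG versus Con and HWG versus LWG. DESeq2 gave 37, 5 and 110 genes an adjusted p under 0.05 in these comparisons, none of them among the 6. At an unadjusted p under 0.05 edgeR gave 0 of the 6 in LWG versus Con, against 985 tested genes or 6.63% (2.83% higher, 3.8% lower). In HWG versus Con it gave 1 of the 6, against 619 genes or 4.16% (2.13% higher, 2.04% lower), and in HWG versus LWG 1 of the 6, against 1569 genes or 10.6% (5.15% higher, 5.41% lower). The groups did not overlap for 0 of the 6 in LWG versus Con, against 2.87% of tested genes (1.18% higher, 1.68% lower), and for 0 of the 6 in HWG versus Con, against 2.31% (1.1% higher, 1.21% lower). In HWG versus LWG they did not overlap for 1 of the 6, against 4.39% (2.44% higher, 1.94% lower).

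CCK was the hormone gene with the smallest p between diets. It was at 31.5, 26.9, 29.2 and 21.65 CPM in HWG replicates 1 to 4, against 69.8, 45.8, 45.8 and 61.9 CPM in LWG replicates 1 to 4. Con replicates 1 to 4 had 50.6, 24.4, 72.0 and 29.1 CPM. Each HWG goose was below each LWG goose, and the Con geese were spread over the range of both groups. The mean was 27.3 ± 4.22 CPM in HWG and 55.8 ± 12.0 CPM in LWG (SD, n = 4 each), which is a log2 fold change of -1.03 with a 95% interval of -1.68 to -0.38 (edgeR, adjusted p = 0.368). CCK was thus the hormone gene lower at an unadjusted p under 0.05 and the one without overlap.

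HWG against Con gave a log2 fold change of CCK of -0.69 (95% interval -1.33 to -0.05, edgeR adjusted p = 0.939), from 27.3 ± 4.22 CPM in HWG and 44.0 ± 21.9 CPM in Con. The groups overlapped, and CCK was the hormone gene lower at an unadjusted p under 0.05. LWG against Con gave 0.34 (95% interval -0.30 to 0.98, adjusted p = 0.884 from edgeR). The LWG and HWG comparisons with Con share the same Con geese.

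CCK was lowest in HWG geese in the pieces of both kinds, while LWG and Con geese differed in order between them. Among the 7 geese with GATA4 above HOXA10, the 3 HWG geese had 26.9 to 31.5 CPM, against 45.8 and 61.9 CPM in the 2 LWG geese and 50.6 and 72.0 CPM in the 2 Con geese. Among the 5 geese with HOXA10 above GATA4, the single HWG goose had 21.65 CPM, against 45.8 and 69.8 CPM in the 2 LWG geese and 24.4 and 29.1 CPM in the 2 Con geese. With the log2 ratio of HOXA10 to GATA4 as a covariate, the log2 fold change of HWG against LWG was -1.16 (edgeR, adjusted p = 0.0923).

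Markers of enterocytes moved in the same direction. The summed level of the 10 enterocyte markers in the table (VIL1, FABP2, ANPEP and others) was 4294 to 20350 CPM in HWG geese (median 4859 CPM), against 13410 to 26120 CPM in LWG geese (median 19190 CPM) and 5213 to 22040 CPM in Con geese (median 8409 CPM). All 10 had a negative log2 fold change in HWG against LWG, with a median of -1.06, while none passed the adjusted test. With the mean log2 CPM of these markers as a covariate, a fit added after the data were seen, the log2 fold change of CCK in HWG against LWG was -0.56, and it no longer had an unadjusted p under 0.05. HWG replicate 3, at 20350 CPM of enterocyte markers, had 29.2 CPM of CCK, within the range of the other HWG geese. Those, replicates 1, 2 and 4, had 5414, 4304 and 4294 CPM of the markers. Con replicates 2 and 4, at 5213 and 5327 CPM of the markers, had 24.4 and 29.1 CPM of CCK. Con replicates 1 and 3, at 11490 and 22040 CPM, had 50.6 and 72.0 CPM of CCK. The relation of CCK with these markers over the geese was not tested. As a share of the CPM of CHGA, CCK stood at 5.27 ± 1.49% in HWG, against 9.28 ± 1.80% in LWG (SD, n = 4 each). The ranges, 3.31 to 6.93% and 7.75 to 11.5%, did not overlap. This share uses the same CCK values, and CHGA differed only 1.78-fold between the highest and lowest goose. It is therefore no separate test. Con geese stood at 7.38 ± 4.23%, with a range of 3.87 to 12.6% that overlapped both.

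**Figure D3:**
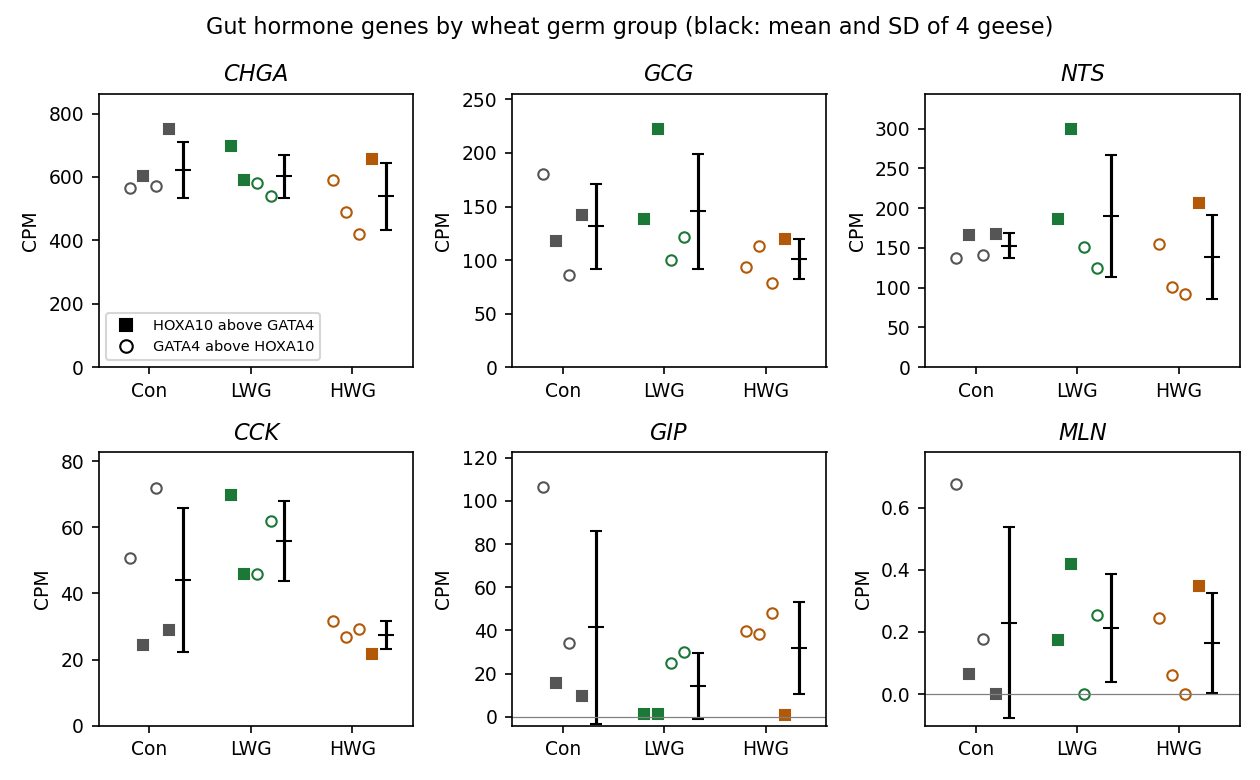
CPM of CHGA, GCG, NTS, CCK, GIP and MLN in each goose by diet group (Con, LWG, HWG), with the mean and SD of the 4 geese in black and filled squares for geese with HOXA10 above GATA4. The 4 HWG geese lie at 21.65 to 31.5 CPM for CCK, below the 4 LWG geese at 45.8 to 69.8 CPM, while for the other genes the groups overlap.

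Of the 6 tested hormone genes, CHGA showed the least spread between geese, and it had no call between diets. It was at 564, 604, 569.8 and 750.5 CPM in Con replicates 1 to 4, at 699, 591, 582 and 538 CPM in LWG replicates 1 to 4 and at 589, 488, 421 and 655 CPM in HWG replicates 1 to 4. The 3 groups overlapped. The log2 fold change was -0.05 in LWG against Con (95% interval -0.45 to 0.36) and -0.21 in HWG against Con (95% interval -0.61 to 0.20). The data therefore leave room for a difference of up to about these bounds.

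GCG, the source of glucagon-like peptides that act on insulin release and mucosal growth, was at 180.4, 118, 86.2 and 142 CPM in Con replicates 1 to 4. It was at 138, 222, 100.3 and 121 CPM in LWG replicates 1 to 4 and at 93.4, 113, 78.2 and 119.6 CPM in HWG replicates 1 to 4. The groups overlapped, and the log2 fold change was -0.53 in HWG against LWG (95% interval -1.11 to 0.05, edgeR adjusted p = 0.512), 0.14 in LWG against Con (95% interval -0.43 to 0.72) and -0.38 in HWG against Con (95% interval -0.96 to 0.20). NTS averaged 139 ± 53.1 CPM in HWG and 190.2 ± 77.1 CPM in LWG (SD, n = 4 each), a log2 fold change of -0.46 (95% interval -1.09 to 0.17). Against Con, at 153 ± 16.0 CPM, it was 0.32 in LWG (95% interval -0.32 to 0.95) and -0.14 in HWG (95% interval -0.77 to 0.49). With the enterocyte markers as a covariate, HWG against LWG gave -0.86 for GCG and -0.89 for NTS. Both had an unadjusted p under 0.05 from edgeR in this fit, which was added after the data were seen. Neither had an adjusted p under 0.05.

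GIP averaged 14.4 ± 15.3 CPM in LWG and 41.5 ± 44.7 CPM in Con (SD, n = 4 each), which is a log2 fold change of -1.53 with a 95% interval from -4.05 to 0.99 (edgeR, adjusted p = 0.848). Without Con replicate 1 it was -0.46, and with the enterocyte markers as a covariate -3.03. Within the pieces of 1 kind the spread was smaller. Where GATA4 was above HOXA10, the LWG geese had 24.9 and 30.05 CPM, against 34.2 and 107 CPM in Con geese, and the 3 HWG geese had 38.4 to 48.3 CPM. Where HOXA10 was above GATA4, the LWG geese had 1.11 and 1.44 CPM, against 9.56 and 15.5 CPM in Con geese, and the HWG goose had 0.655 CPM. With the ratio of HOXA10 to GATA4 as a covariate, the log2 fold change was -1.90 in LWG against Con (edgeR, adjusted p = 0.329), -1.24 in HWG against Con (adjusted p = 0.618) and 0.66 in HWG against LWG (adjusted p = 0.487). GATA4 itself differed within the sets. Where HOXA10 was above GATA4, it was at 0.437 and 0 CPM in the LWG geese, against 2.66 and 0.0817 CPM in the Con geese, and its part in these differences was not tested.

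MLN, at 0 to 27 counts, averaged 0.229 ± 0.307 CPM in Con, 0.212 ± 0.174 CPM in LWG and 0.164 ± 0.161 CPM in HWG (SD, n = 4 each). The 95% interval of its log2 fold change reached from -2.97 to 2.78 in LWG against Con, so that no difference could be shown in either direction. Over the 6 genes, the median log2 fold change was 0.05 in LWG against Con, -0.38 in HWG against Con and -0.41 in HWG against LWG, beside 0.01, -0.01 and 0.01 over all tested genes.

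**Figure D4:**
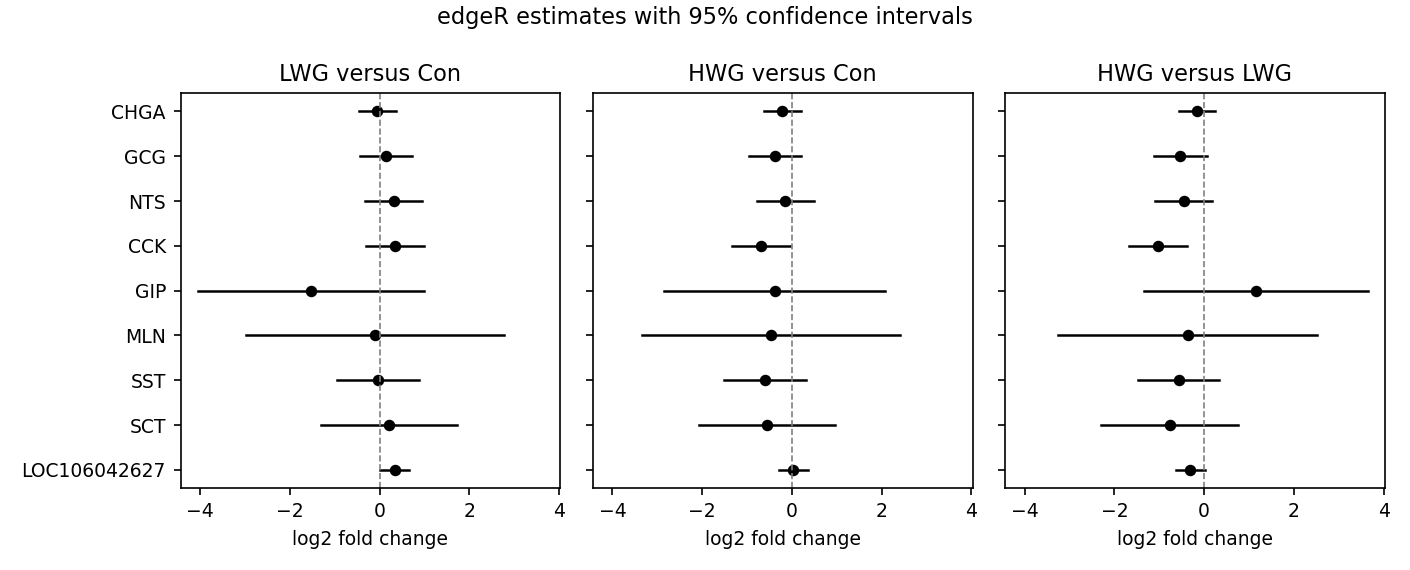
Log2 fold change (point) with its 95% confidence interval (line) from edgeR for the 6 tested hormone genes and for SST, SCT and LOC106042627, in LWG versus Con, HWG versus Con and HWG versus LWG. The interval of CCK lies below 0 in HWG versus LWG (-1.68 to -0.38), while those of GIP and MLN are the widest.

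SST averaged 5.23 ± 3.20 CPM in Con, 5.11 ± 1.10 CPM in LWG and 3.445 ± 0.935 CPM in HWG (SD, n = 4 each), with log2 fold changes of -0.60 in HWG against Con and -0.03 in LWG against Con. SCT, which calls forth bicarbonate from the pancreas, had log2 fold changes of 0.21 in LWG against Con (95% interval -1.31 to 1.72) and -0.55 in HWG against Con (95% interval -2.08 to 0.97).

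The tryptophan 5-hydroxylase-like gene was at 158, 133, 157.5 and 122 CPM in LWG replicates 1 to 4, against 96.3, 129, 112 and 114 CPM in Con replicates 1 to 4. The groups overlapped, and the log2 fold change was 0.34 with a 95% interval of 0.01 to 0.66 (edgeR, unadjusted p = 0.0421, adjusted p = 0.727). A second row described as tryptophan 5-hydroxylase, LOC106033856, did not exceed 1.84 CPM. SLC6A4, which takes serotonin back up into the epithelium, had 51.6 to 89.35 CPM in LWG geese and 16.7 to 34.45 CPM in Con geese without overlap (log2 fold change 1.37, adjusted p = 0.652 from edgeR). The HWG geese, at 8.74 to 39.5 CPM, were also below the LWG geese without overlap (log2 fold change -1.64, adjusted p = 0.338 from edgeR). A list of serotonin synthesis, uptake and receptors, which holds neither of the tryptophan 5-hydroxylase rows above, had 15 tested genes. Of these, SLC6A4 and HTR2C were higher in LWG than in Con at an unadjusted p under 0.05. HTR7 and HTR2B were lower, and none passed the adjusted test. Among all tested genes, 2.83% were higher and 3.8% lower in LWG at this threshold. The receptor HTR7 averaged 7.02 ± 0.974 CPM in LWG and 12.1 ± 1.74 CPM in Con, and 13.9 ± 3.42 CPM in HWG (SD, n = 4 each), where its log2 fold change against LWG was 0.99 (adjusted p = 0.338 from edgeR).

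Receptors for the gut hormones were also measured. Of 21 listed, 16 were in the table and 14 were tested. In LWG against Con none was higher at an unadjusted p under 0.05, while GLP2R and NPY2R had lower levels. In HWG against LWG, GLP2R and SSTR4 were higher and none was lower. In HWG against Con SSTR1 was higher by this threshold (log2 fold change 0.88). Among all tested genes, 3.8% were lower in LWG against Con, 5.15% higher in HWG against LWG and 2.13% higher in HWG against Con. GLP2R, the receptor through which a product of GCG drives mucosal growth in mammals, averaged 10.4 ± 3.01 CPM in LWG and 21.8 ± 5.97 CPM in Con (SD, n = 4 each), which is a log2 fold change of -1.07 (edgeR, adjusted p = 0.6255). The LWG and Con groups overlapped. In HWG, GLP2R averaged 20.0 ± 2.33 CPM, above LWG without overlap (log2 fold change 0.95, adjusted p = 0.338 from edgeR). SCTR, the secretin receptor, had the highest mean level per length of the list, 32.5 FPKM. GLP2R, GLP1R and CCKAR stood at 9.39, 8.09 and 8.07 FPKM. CCKBR did not exceed 0.123 FPKM. The part of enterocytes, nerve and muscle in these receptor levels, and in that of HTR7, was not tested.

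The enzymes that modify or degrade these hormones gave no call either. In HWG against LWG, 5.41% of all tested genes were lower at an unadjusted p under 0.05. Of the 8 listed enzymes, 7 were tested, and 3 were lower by this threshold. They were DPP4, which inactivates incretins (303 ± 202 CPM in HWG and 603.5 ± 127 CPM in LWG, adjusted p = 0.432 from edgeR), and the brush border aminopeptidases ENPEP (log2 fold change -1.27) and ANPEP (-1.50). ANPEP is also among the enterocyte markers, whose levels in these groups are given above, and their part in these 3 genes was not tested.

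Of 32 genes of granules and prohormone processing, 27 were tested. At an unadjusted p under 0.05, 2 of the 27 had higher and none had lower levels in each of HWG against Con and HWG against LWG. Among all tested genes, 2.13% were higher and 2.04% lower in HWG against Con. The shares in HWG against LWG were 5.15% higher and 5.41% lower. PCSK2, a prohormone convertase that neurons also use, averaged 58.4 ± 24.9 CPM in HWG, against 34.7 ± 6.73 CPM in LWG (log2 fold change 0.75, adjusted p = 0.415 from edgeR) and 37.5 ± 9.65 CPM in Con. RGS4, a regulator of G protein signaling, was the other in HWG against Con (log2 fold change 0.56) and SLC18A2, which loads monoamines into vesicles, the other in HWG against LWG (0.56). The median log2 fold change of the 27 genes was -0.01 in LWG against Con, 0.06 in HWG against Con and 0.07 in HWG against LWG.

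Of 25 endocrine transcription factors, 17 were tested. FEV, of serotonin cells, was the single one at an unadjusted p under 0.05 in LWG against Con, at 1.66 ± 0.356 CPM in LWG and 3.83 ± 1.58 CPM in Con (log2 fold change -1.20, adjusted p = 0.652 from edgeR). In HWG against LWG, NKX2-2 (log2 fold change 1.38) and ETV1 (0.52) had such a p, and in HWG against Con none had. The shares of all tested genes were 3.8% lower in LWG against Con and 5.15% higher in HWG against LWG.

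Among 30 other peptide genes of gut cells and nerves, 16 were tested. TAC1 and PENK, both also peptides of enteric neurons, were higher in HWG than in LWG at an unadjusted p under 0.05, with log2 fold changes of 0.76 and 0.97. ADCYAP1 was higher (2.24) and TRH lower (-0.90) in HWG than in Con, each with adjusted p = 0.939 from edgeR. ADCYAP1 was close to absent, at 0.391 ± 0.148 CPM in HWG and 0.0808 ± 0.0986 CPM in Con. It did not exceed 23 counts in any library. TRH averaged 1.53 ± 0.492 CPM in HWG and 2.86 ± 0.995 CPM in Con (SD, n = 4 each). Among all tested genes, 5.15% were higher in HWG against LWG, and 2.13% were higher and 2.04% lower in HWG against Con. The summed level of 14 markers of enteric neurons and glia, TAC1 among them, was 131 to 257 CPM in HWG geese (median 228 CPM), against 125.5 to 183 CPM in LWG geese (median 159 CPM) and 110.0 to 205 CPM in Con geese (median 162 CPM), and the summed level of 6 smooth muscle markers had a median of 13800 CPM in HWG geese, against 8056 CPM in LWG geese and 7611 CPM in Con geese. The part of nerve and muscle in the peptide levels was not tested. Of 16 genes listed for sensing by endocrine cells, which include channels and transporters beside receptors, 11 were tested. The channel gene TRPA1 was the single one at an unadjusted p under 0.05, in LWG against Con (log2 fold change -0.93). In that comparison 3.8% of all tested genes were lower by this threshold.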

How the data were processed

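RNA of 12 jejunum samples, 4 geese in each of 3 groups, was sequenced. According to the labels and the methods, reads were filtered with fastp, mapped with HISAT2 and quantified with StringTie; versions are not given in the sources used here. The table holds a whole-number count per gene and library, deposited by the authors, with totals that differ between libraries, and FPKM values computed by the authors with StringTie. Multiples of 4 are in excess among the counts (3148 values are 4, against 1250 that are 3 and 1052 that are 5). A deposited count therefore does not stand for 1 read pair, and counting intervals are left out. No pair of the 66 library pairs held the same library (smallest chi-square per degree of freedom 87.2). The genes lie on scaffolds whose build is not stated, so positions are not given, and no sequence is printed. Of the gene numbers, 15158 were found in the RefSeq table, which gave symbols to 848 LOC genes.

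With edgeR 4.0.16 (R 4.3.3), genes were filtered by filterByExpr (14863 left), scaled by TMM and fitted with the diet group as the only factor (quasi-likelihood F-test, Benjamini-Hochberg adjustment). Confidence intervals take the size of the log2 fold change divided by the square root of F as the standard error. Alternatives were DESeq2 1.42.0, its size factors, other filters, counts divided by 4, limma 3.58.1 on log2(FPKM + 0.1, 1 or 0.01), a robust prior, the replicate number as a block, the groups compared alone, covariates and leaving out each library. For relations, CPM were taken to log2 (prior count 2) and permuted 100000 times, or in all orders for fewer than 10 geese, two-sided. The fit was tested on simulated data. The genes named were the members, the position genes, up to 4 genes of each list with the smallest unadjusted p under 0.05 and the 3 genes most like each member. Members and lists were chosen with earlier results of these data known. Tables and plots were made in Python 3.11.15 with pandas 2.3.3, numpy 2.4.6 (permutations), matplotlib 3.10.9 and scipy 1.17.1 (ranks). The group of each library, and so the direction of each difference, rests on the deposited sample titles alone, which give no batch.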

Additional observations from a re-analysis of the deposited data

Results flagged for a closer look

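Within a group of 4 geese, a value was singled out when its gap to the nearest goose exceeded Dixon's 95% critical share of the range of the group, which chance gives in about 1 in 20 groups. Of the 34 groups checked for the hormone genes, SST, SCT, the tryptophan 5-hydroxylase-like gene, GATA4 and HOXA10, 3 met this. GHRL was at 0.0409 CPM in Con replicate 4 and at 0 in the other Con geese. With the others at 0, any value above 0 is singled out, and this one is 2 counts. SST was at 2.05 CPM in HWG replicate 4 and at 3.81 to 4.06 CPM in the other HWG geese. HOXA10 was at 35.6 CPM in HWG replicate 4 and at 0 to 0.166 CPM in the other HWG geese.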

How the results depend on the processing

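No hormone gene reached an adjusted p under 0.05 in any of the 3 comparisons under the alternatives run, 25 for each gene but MLN, which gave no value with the filter on FPKM, with counts divided by 4 or with the 2 groups alone. CCK in HWG versus LWG kept its direction and an unadjusted p under 0.05 in 24 of them and lost it with the enterocyte markers as a covariate (log2 fold change -0.56), a fit added after the data were seen. Its adjusted p ran from 0.0730 with DESeq2 to 1.0 with these markers. Over all genes, DESeq2 called 37 genes in LWG versus Con, 5 in HWG versus Con and 110 in HWG versus LWG, and the position ratio as a covariate 2 in HWG versus LWG. Leaving out 1 library gave 0 to 1 genes in LWG versus Con (1 without Con replicate 3), 0 to 2 in HWG versus Con and 0 to 108 in HWG versus LWG, the highest of both without HWG replicate 3. The cause was not tested.

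The number of hormone genes at an unadjusted p under 0.05 in LWG versus Con was 1 with the position ratio and 2 with the enterocyte markers as a covariate, and 0 to 1 when leaving out a library (1 without Con replicate 3). In HWG versus Con it was 0 with limma at each of the 3 pseudocounts, with the 2 groups alone and with the enterocyte markers, 2 with the position ratio, and 0 to 1 when leaving out a library (0 without Con replicate 1 or 3, LWG replicate 4, or HWG replicate 2, 3 or 4). In HWG versus LWG it was 4 with the enterocyte markers, and CCK was not among them. The 4 were GCG (log2 fold change -0.86), NTS (-0.89), GIP (3.58) and CHGA. None of them had an adjusted p under 0.05 in this fit. When leaving out a library, the number in HWG versus LWG was 1 to 2 (2 without LWG replicate 3 or HWG replicate 4). Shares of all tested genes are given for the main fit only. These counts therefore have no share beside them and are not read as a result about the hormone genes.

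Of 441 values of hormone genes under the alternatives 17 changed sign. No hormone gene was called in the main fit or under an alternative. In LWG versus Con the log2 fold change of MLN was 0.18, 0.0064 and 0.29 with limma on FPKM plus 0.1, 1 and 0.01, and 0.022 with the enterocyte markers, which gave 0.11 for CHGA. In HWG versus Con the enterocyte markers gave 0.55 for GIP. Leaving out a library changed the sign of GCG, MLN and CHGA in LWG versus Con, of NTS, GIP and MLN in HWG versus Con and of MLN in HWG versus LWG, with values in LWG versus Con from -0.14 to 0.33 for GCG, from -0.67 to 1.40 for MLN and from -0.13 to 0.057 for CHGA, in HWG versus Con from -0.40 to 0.035 for NTS, from -0.71 to 0.69 for GIP and from -1.13 to 1.04 for MLN, and in HWG versus LWG from -1.03 to 0.22 for MLN. The log2 fold change of GIP in LWG versus Con kept its sign, from -2.20 to -0.46 when leaving out a library. Within the 7 geese with GATA4 above HOXA10, r with the position ratio ran from -0.74 to 0.36 for GCG, from -0.16 to 0.71 for NTS, from -0.74 to -0.28 for GIP, from -0.74 to 0.14 for MLN and from -0.21 to 0.62 for CHGA when leaving out a goose. Deviations from group means and leaving out the 2 geese farthest from the median were not run for this ratio, as 7 geese were left. Pearson's r of NTS and GIP kept an unadjusted p under 0.05 under each alternative, while GIP and CHGA lost it in 10 of 16 (r = -0.50 to -0.64 when leaving out a library). These alternatives all hold geese of both sets, which NTS and GIP separate, so they cannot show a relation apart from the sets. Within the 7 geese r of NTS and GIP was -0.12 (exact permutation test, p = 0.822).

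With the replicate number as a block, 8 genes were called in HWG versus LWG, none of them a hormone gene. In this fit 2 hormone genes had an unadjusted p under 0.05, and the share of all tested genes at this threshold is not given. The numbers are not known to pair geese. The 12 pairs of libraries with the same number in different groups had correlations of -0.282 to 0.377, 6 of them over 0.1, and 4 of 12 libraries correlated best with their own number. Counts gathered at multiples of 4 leave the depth behind low genes such as MLN and GHRL unknown.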
